A study of Mus musculus with 7 samples.

Results

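The 10 genes described here, grouped as pan-endothelial because they serve as markers of endothelial cells, were followed in cells sorted from mouse bone marrow. The genes are Emcn, Plvap, Clec14a, Mmrn2, Egfl7, Eng, Tie1, Esam, Cldn5 and Icam2. Every probe set whose single gene symbol in the platform annotation was 1 of these 10 names was taken, which gave 18 of the 45101 probe sets in the table for 10 of its 18193 genes. A probe set is a group of short probes that together report 1 transcript or gene. Emcn, Plvap, Tie1, Esam, Cldn5 and Icam2 had 1 probe set each, Clec14a and Eng had 2, and Mmrn2 and Egfl7 had 4. RNA was amplified from 1800 to 10000 sorted cells per array and hybridised to 7 Affymetrix arrays. All mice were wild-type C57Bl/6J animals aged 6 to 12 weeks, and both populations were sorted as CD45- and Lin-. The CD54+CD31-BP1+ cells, labelled stromal, have 4 arrays (stromal 1 to 4). The CD54-CD31+ cells, labelled endothelial, have 3 arrays (endothelial 1 to 3). Separate mice or sorts are not stated for the arrays of a group, and a p-value here therefore covers the spread among these arrays alone, which may be technical. Values are the deposited log2 values, and differences are stromal minus endothelial.

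The endothelium lines blood vessels, and its cells carry a shared set of surface and junction proteins. Some act in barrier and transport functions (plasmalemma vesicle protein, claudin-5, ESAM), and some bind leukocytes or matrix (ICAM2, CLEC14A). Endoglin is a co-receptor for growth factors of the BMP family, and TIE1 is an orphan receptor that modulates the angiopoietin receptor TIE2. Egfl7 and Mmrn2 encode secreted proteins that lie close to the endothelial surface, so the name membrane genes covers them only loosely. In bone marrow the sinusoidal endothelium is fenestrated and forms the route by which blood cells enter the circulation. Several of these proteins are not restricted to endothelium: ESAM and ICAM2 are also found on platelets, and endoglin is widely used as a surface marker of mesenchymal stromal cells.

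Depth does not apply to arrays, and their number limits the precision. The array medians lay between 6.00 and 6.19. The 40th percentile of each array lay between 5.48 and 5.79 and was used as the line below which a probe set counts as dim. Hybridisation controls, which report spiked-in transcripts, averaged 9.51 to 9.67 over the stromal arrays and 9.75, 11.33 and 11.37 for endothelial 1 to 3. Of 37 other pan-endothelial genes, 25 averaged above the 40th percentile in the stromal population and 26 in the endothelial one. On 3 or more arrays 28 of the 37 lay above that line, as did 13995 of all 18193 genes. These counts alone therefore do not set the listed genes apart from genes at large. Defining endothelial genes were mixed on the arrays labelled endothelial. Cdh5 (VE-cadherin) lay at 5.19 to 5.67 there and Tek (the angiopoietin receptor TIE2) at 4.50 to 4.98, each below the 40th percentile of its array. The sorting antigen gene Pecam1 (CD31) lay at 7.68 to 8.86 on those arrays. The VEGF receptor genes Kdr and Flt1, chosen after their values were seen, were lower on the stromal arrays: Kdr averaged 6.63 ± 0.16 against 8.71 ± 0.89 (-2.08, limma adjusted p = 0.00262) and Flt1 6.49 ± 0.14 against 7.51 ± 0.41 (-1.02, adjusted p = 0.00617). Megakaryocyte and platelet genes were high on the same arrays: the mean of the 14 listed markers found in the table was 6.24 to 8.23 for the stromal arrays and 13.07 to 13.36 for the endothelial arrays. In RNA from a sorted population, fewer cells of a type and less RNA per cell cannot be told apart.

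The 10 genes did not share a direction. Clec14a and Eng were higher on the stromal arrays, Esam and Plvap were lower there, and the others were dim or differed by less than 2-fold, apart from Icam2, whose endothelial values were scattered. Of the 18 probe sets 14 were bright enough to test and 4 were not (Emcn, Tie1 and 2 of Mmrn2). In the limma test 3 of the 14 passed as higher on the stromal arrays (both of Clec14a and 1 of Eng), where 26.0% of all 29438 tested probe sets did. Those lower on the stromal arrays numbered 2 (Esam and Plvap), against a background of 14.6%. Passing means that the log2 difference reached 1 in size with an adjusted p below 0.05. As shares of the 14 these are 21.4% and 14.3%, together 35.7%, where 40.6% of all tested probe sets passed in either direction. By adjusted p alone 4 of the 14 were higher (background 30.8%) and 6 were lower (background 29.1%). The median difference over the 18 probe sets was -0.63, where it was -0.31 over all 45037 non-control probe sets. Negative differences were found in 14 of the 18 (77.8%) and in 62.0% of all probe sets. In 4 of the 14 tested every stromal array lay above every endothelial array, where 30.3% of all tested probe sets did so. In 6 of the 14 every stromal array lay below, with a background of 31.4%. A probe set of Clec14a and a probe set of Egfl7 reached the test only through the population where they were brighter. A second quantile normalization gave a median over all tested probe sets of -0.13, where it was 0.07 as deposited.

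**Figure D1:**
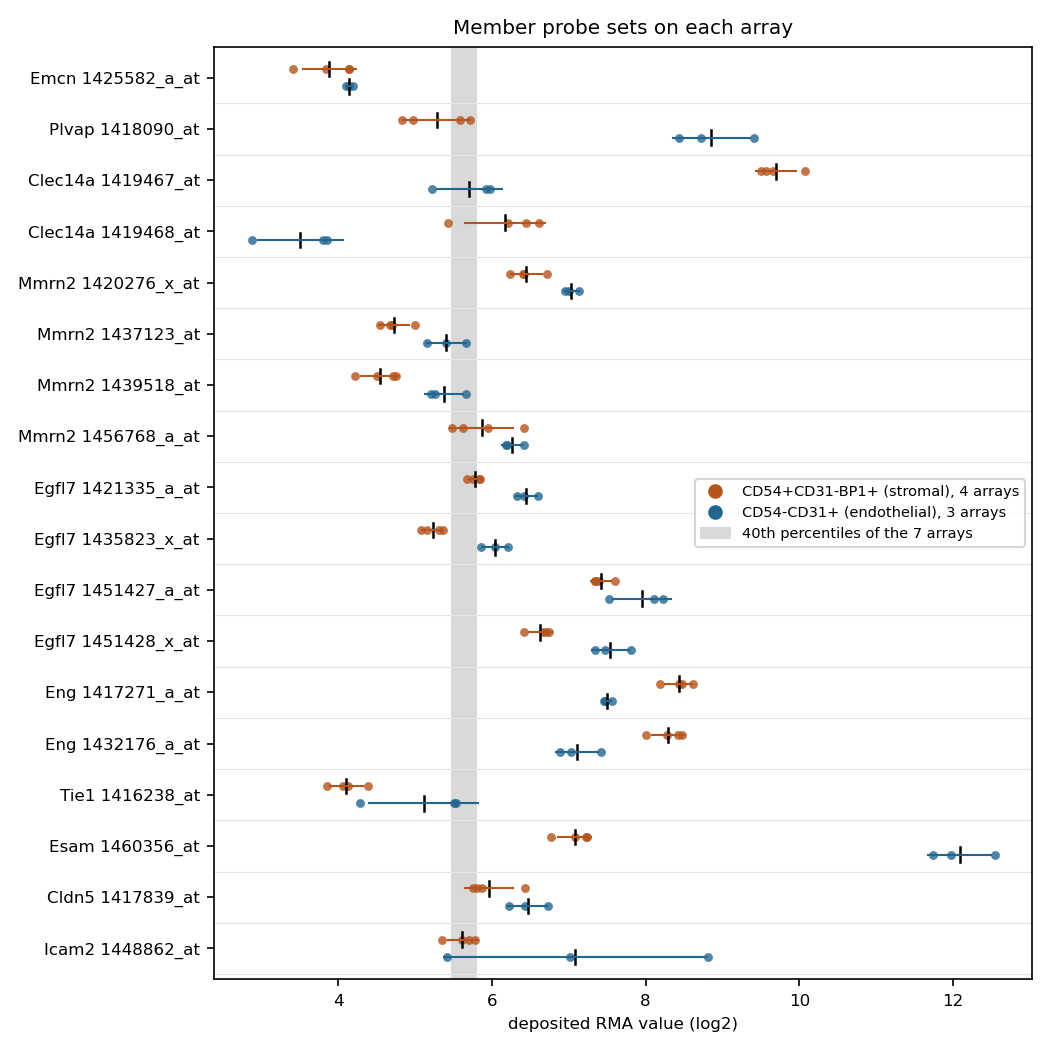
Deposited log2 values (x axis) of the 18 member probe sets (rows) on each array, with the 4 stromal arrays in the upper line of a row and the 3 endothelial arrays in the lower line; black ticks are means, bars 1 SD, and the grey band spans the 40th percentiles of the 7 arrays. Clec14a lies to the right on the stromal arrays, Esam and Plvap on the endothelial arrays, and Emcn lies left of the band in both.

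**Figure D2:**
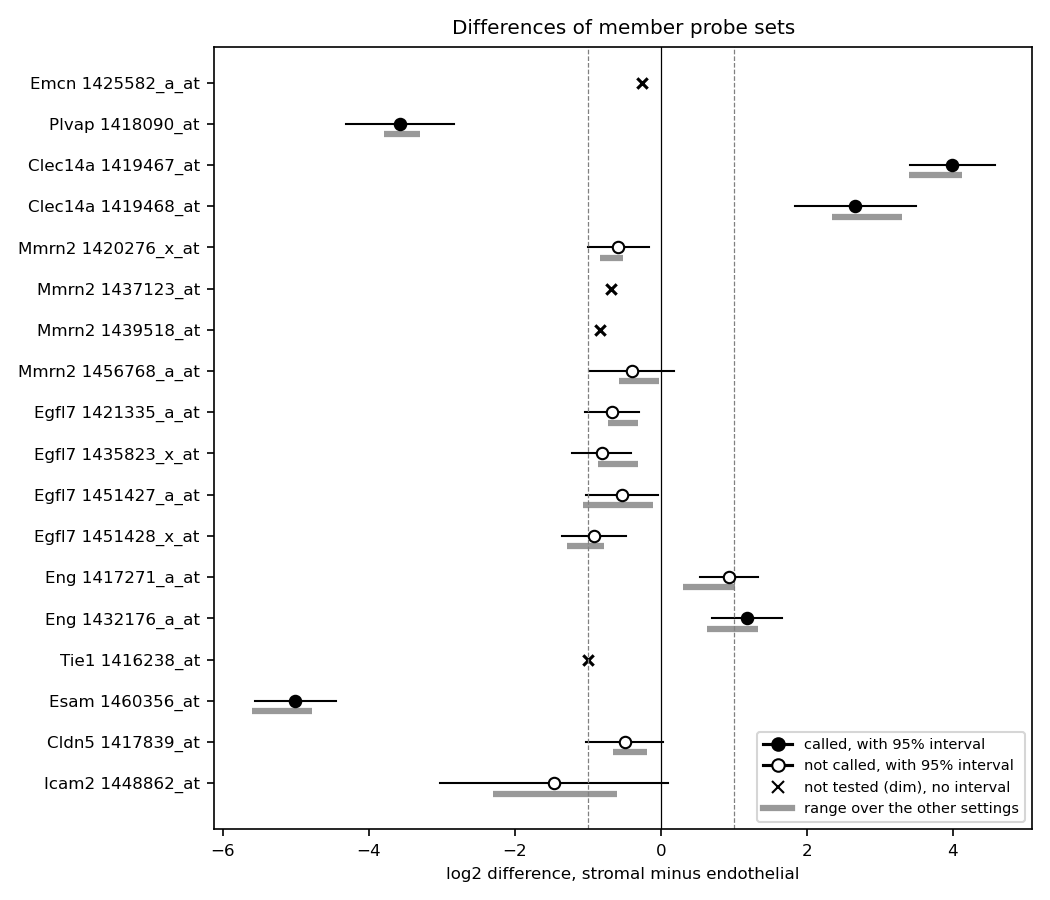
Log2 difference, stromal minus endothelial, for each member probe set, with the 95% interval of the limma fit where it was tested. Filled points were called, open points were not, crosses were too dim to test, and grey bars show the range over the other settings; the dashed lines mark -1 and 1.

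Among the surface glycoproteins, Plvap differed and Emcn lay in the dim range. Plvap (chr8:71497753-71511806, GRCm38.p6) encodes the protein that forms the diaphragms of fenestrae and caveolae. Its values were 5.59, 5.71, 4.98 and 4.83 on stromal 1 to 4 and 8.72, 8.44 and 9.41 on endothelial 1 to 3. All stromal arrays lay below all endothelial arrays, by more than the spread within either population. The difference was -3.58 (SE 0.32, 95% interval -4.31 to -2.84, adjusted p = 5.63e-05). The stromal mean of 5.28 ± 0.44 (SD, n = 4) lay below the 40th percentile, so no fold is given. Cav1, which encodes the caveolar coat protein caveolin-1, averaged 6.95 ± 0.35 for stromal and 6.72 ± 0.22 for endothelial arrays and did not pass (0.24, 95% interval -0.31 to 0.78, adjusted p = 0.406). Emcn encodes endomucin, a sialomucin of capillary and venous endothelium. It lay at 3.84, 4.14, 3.41 and 4.14 on the stromal arrays and at 4.13, 4.11 and 4.19 on the endothelial arrays. The populations overlapped and all 7 values fell between percentiles 5.72 and 15.2 of their arrays. Whether this probe set responds to endomucin RNA on these arrays was not tested.

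Clec14a had the largest difference toward the stromal arrays among the members tested. The gene (chr12:58264720-58269258) encodes a transmembrane C-type lectin-like protein of endothelial cells that binds multimerin-2, the product of Mmrn2. Probe set 1419467_at lay at 9.57, 10.07, 9.66 and 9.50 on stromal 1 to 4, against 5.97, 5.22 and 5.93 on endothelial 1 to 3. The second probe set, 1419468_at, lay at 5.43, 6.61, 6.21 and 6.44 on the stromal arrays and at 2.87, 3.85 and 3.80 on the endothelial arrays. On both, every stromal array was above every endothelial array. The differences were 3.99 (SE 0.25, 95% interval 3.41 to 4.58, adjusted p = 8.55e-06) and 2.67 (SE 0.36, 95% interval 1.84 to 3.49, adjusted p = 5.37e-04). The endothelial means of both probe sets lay below the 40th percentile, so the size is limited by the floor of the arrays. On the stromal arrays, where Clec14a was high, Pecam1 lay at 4.64 to 5.12 and Cdh5 at 4.48 to 4.74, below the 40th percentile on each of the 4 arrays. The sort itself selected CD31- cells, and Cdh5 lay below that percentile on the endothelial arrays too. These values therefore cannot show whether endothelial cells were among the stromal cells, which was not tested. The second probe set passed the brightness filter through the stromal arrays alone, and it was not tested when stromal 2, stromal 3 or stromal 4 was left out. The first kept its call under each setting tried.

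The RefSeq promoter table (assembly GRCm38.p6) holds windows from 250 bases before to 50 after a transcript start for 6 of the 10 members. Shown are those of Clec14a and Eng, which had higher values on the stromal arrays, and 1 of the 3 for Egfl7, whose 4 probe sets were all lower there. Capitals mark the letters CNGGAAG on either strand, which contain the GGAA core bound by ETS factors, a family that acts at many endothelial genes. These letters occur in 5 of the 8 member windows and in 31.9% of all 32851 windows in the table. GGAA alone occurs in 96.0% of all windows.
Clec14a, chr12:58269209-58269508, minus strand: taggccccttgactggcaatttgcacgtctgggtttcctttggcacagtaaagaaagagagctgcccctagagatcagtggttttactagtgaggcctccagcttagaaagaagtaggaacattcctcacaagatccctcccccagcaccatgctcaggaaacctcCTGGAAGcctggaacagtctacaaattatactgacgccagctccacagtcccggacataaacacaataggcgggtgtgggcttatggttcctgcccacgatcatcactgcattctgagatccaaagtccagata
Eng, chr2:32646345-32646644, plus strand: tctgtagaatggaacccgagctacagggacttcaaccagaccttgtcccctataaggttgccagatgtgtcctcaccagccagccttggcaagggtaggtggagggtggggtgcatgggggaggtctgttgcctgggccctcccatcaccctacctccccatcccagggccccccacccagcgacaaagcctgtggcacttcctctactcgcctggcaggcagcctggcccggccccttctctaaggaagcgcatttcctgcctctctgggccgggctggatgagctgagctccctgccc
Egfl7, chr2:26583615-26583914, plus strand: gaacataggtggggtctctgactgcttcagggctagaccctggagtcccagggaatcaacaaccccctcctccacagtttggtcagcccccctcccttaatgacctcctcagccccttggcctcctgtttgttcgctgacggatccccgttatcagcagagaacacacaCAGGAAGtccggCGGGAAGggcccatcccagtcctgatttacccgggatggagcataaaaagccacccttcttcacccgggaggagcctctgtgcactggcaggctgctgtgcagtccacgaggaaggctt
The Clec14a window holds the letters 1 time, the Eng window 0 times and this Egfl7 window 2 times. Of the other Egfl7 windows, 1 holds them 2 times and 1 holds them 0 times. Clec14a and Eng, both higher on the stromal arrays, thus differ in these letters within the window.

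The relatives of Clec14a in the same lectin group did not follow it uniformly. Thbd, which encodes thrombomodulin, was higher on the stromal arrays (10.25 ± 0.12 against 6.85 ± 0.62, a difference of 3.40, adjusted p = 4.29e-05). Cd93, which encodes another receptor for multimerin-2, was lower on the stromal arrays (8.60 ± 0.52 against 9.60 ± 0.01, a difference of -1.01, adjusted p = 0.0172). Its difference is just past the required size, and blocking on hybridisation-control level gave -0.99, which did not pass (adjusted p = 0.112). Cd248, which encodes endosialin, did not pass (7.75 ± 0.28 against 7.28 ± 0.14, adjusted p = 0.0818).

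The secreted members Mmrn2 and Egfl7 lay slightly lower on the stromal arrays and passed on no probe set. Mmrn2 encodes multimerin-2, a matrix protein of the endothelial surface. Its brightest probe set, 1420276_x_at, lay at 6.72, 6.42, 6.24 and 6.41 on the stromal arrays and at 7.005, 6.95 and 7.14 on the endothelial arrays. These values do not overlap, but the difference was -0.58 (SE 0.18, adjusted p = 0.0238), short of the required size. Probe set 1456768_a_at overlapped (-0.40, adjusted p = 0.200), and the other 2 were dim on all 7 arrays, at 4.21 to 5.67. The suffix _x_at marks probe sets that may also detect other transcripts. The homologue Mmrn1, whose product multimerin-1 is stored in platelets, was lower on the stromal arrays (5.61 ± 0.75 against 13.13 ± 0.18, a difference of -7.52, adjusted p = 3.09e-06). Its values on stromal 1 to 3 lay below the 40th percentile, so no fold is given. Mmrn1 is also 1 of the 14 platelet markers.

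Egfl7 encodes a secreted protein with EGF-like domains that endothelial cells deposit around forming vessels. All 4 of its probe sets had lower means on the stromal arrays, by 0.53 to 0.91 on the log2 scale. The brightest, 1451427_a_at, lay at 7.40, 7.35, 7.60 and 7.34 on stromal 1 to 4 and at 7.53, 8.22 and 8.11 on endothelial 1 to 3. The populations overlapped, with endothelial 1 below stromal 3, and its adjusted p was 0.0618. The other 3 did not overlap, with adjusted p from 0.00454 to 0.00899, and stayed short of a 2-fold difference. Of these, 1435823_x_at passed the brightness filter through the endothelial arrays alone. The largest, 1451428_x_at, was 6.63 ± 0.14 against 7.54 ± 0.25 (-0.91, 95% interval -1.35 to -0.47). The calls depended on scaling. After a second quantile normalization this probe set and 1451427_a_at passed, at -1.29 and -1.06, and after cyclic loess also, at -1.09 and -1.03. Cyclic loess moved the others the opposite way, to -0.32 for both 1421335_a_at (adjusted p = 0.129) and 1435823_x_at (adjusted p = 0.167). Without endothelial 3 the probe set 1451428_x_at passed as well, at -1.01. With hybridisation-control level as a block, 1451427_a_at differed by -0.11 (adjusted p = 0.718). The paralogue Egfl8 did not pass (7.04 ± 0.16 against 7.35 ± 0.34, adjusted p = 0.243). Egfl7 (chr2:26581083-26592682, GRCm38.p6) also hosts the microRNA gene Mir126a (chr2:26591357-26591429), whose mature product is known for its abundance in endothelial cells. Its RefSeq sequence is shown as the second RNA made from this locus, with bases 2 to 8, the seed that pairs with targets, in capitals. The microRNA itself was not measured by these probe sets.
mmu-miR-126a-3p: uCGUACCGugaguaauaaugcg

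Of the receptors among the members, Eng was modestly higher on the stromal arrays and Tie1 was dim. Eng (chr2:32646595-32682669) encodes endoglin (CD105), a co-receptor that presents BMP9 and BMP10 to the type I receptor ALK1. Probe set 1432176_a_at lay at 8.28, 8.47, 8.42 and 8.001 on the stromal arrays and at 7.02, 7.42 and 6.89 on the endothelial arrays. Probe set 1417271_a_at lay at 8.19, 8.62, 8.47 and 8.43 against 7.46, 7.56 and 7.47. On both, every stromal array was above every endothelial array. The first was 2.27-fold higher (1.18, 95% interval 0.70 to 1.66, adjusted p = 0.00215) and the second 1.91-fold (0.93, 95% interval 0.53 to 1.33, adjusted p = 0.00273), which is short of the required size. The call of the first was lost after a second quantile normalization (0.69, adjusted p = 0.0247) and after cyclic loess (0.64, adjusted p = 0.0257). The second was 0.31 (adjusted p = 0.203) and 0.33 (adjusted p = 0.173) under those scalings, and it passed, at 1.013, without stromal 1.

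Acvrl1, Tgfbr3 and Bmpr2, whose products act in the same receptor family, were also higher on the stromal arrays. Acvrl1, which encodes ALK1, was 7.54 ± 0.19 against 5.92 ± 0.32 (a difference of 1.63, adjusted p = 4.86e-04). Tgfbr3, which encodes betaglycan, the co-receptor most closely related to endoglin, was 14.05 ± 0.10 against 7.98 ± 1.25 (6.08, adjusted p = 3.83e-05). Bmpr2, which encodes the type II BMP receptor, was 11.33 ± 0.13 against 6.33 ± 2.19 (5.01, adjusted p = 0.00191). The endothelial arrays were scattered for Bmpr2, at 5.67, 8.77 and 4.54, and the stromal arrays were not.

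Tie1 encodes an orphan receptor kinase that modulates signalling through TIE2. Its values were 4.39, 4.07, 3.85 and 4.12 on the stromal arrays and 5.51, 5.54 and 4.29 on the endothelial arrays. Endothelial 3 lay within the stromal range, and all 7 values were below the 40th percentile of their arrays, so Tie1 was not tested. When the brightness filter was dropped, its difference of -1.005 passed (95% interval -1.75 to -0.26, adjusted p = 0.0297), but this compares values at the floor. Tek, which encodes TIE2, was dim on all arrays too, at 4.07 to 4.64 for stromal and 4.50 to 4.98 for endothelial arrays.

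Among the adhesion and junction genes, Esam had the largest difference of any member tested. The gene (chr9:37528089-37538319) encodes an immunoglobulin-type adhesion molecule of endothelial junctions that platelets also carry. It lay at 6.77, 7.23, 7.22 and 7.09 on stromal 1 to 4 and at 12.54, 11.74 and 11.97 on endothelial 1 to 3. The populations were separated by more than 4 on the log2 scale at their closest arrays. The difference was -5.01 (SE 0.24, 95% interval -5.56 to -4.45, adjusted p = 2.17e-06), a 32.2-fold lower value on the stromal arrays. It ranged from -5.61 to -4.78 over the other settings and passed in each. Megakaryocyte and platelet markers moved in the same direction, with 14 of 14 lower on the stromal arrays (background 16.0% of 13995 genes). Their part in the Esam result was not tested.

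Relatives of Esam in the junctional immunoglobulin family went different ways. F11r, which encodes JAM-A, also found on platelets, was 33.9-fold lower on the stromal arrays (6.497 ± 0.16 against 11.58 ± 0.55, adjusted p = 3.48e-06). Jam3, which encodes JAM-C, was higher (6.70 ± 0.31 against 5.15 ± 0.51, a difference of 1.55, adjusted p = 0.00266), although blocking on hybridisation-control level gave 1.14, which missed the threshold (adjusted p = 0.0510). Jam2, which encodes JAM-B, did not pass (5.52 ± 0.15 against 6.00 ± 0.30, adjusted p = 0.0678). Cldn5 encodes claudin-5, the main tight-junction claudin of endothelium. It lay at 6.43, 5.87, 5.81 and 5.76 on the stromal arrays and at 6.43, 6.23 and 6.73 on the endothelial arrays. The populations overlapped through stromal 1, and the difference did not pass (-0.50, 95% interval -1.03 to 0.04, adjusted p = 0.0946). The other tight-junction genes listed were mixed. Cldn1, the claudin-1 gene, lay at 9.96 ± 0.31 against 4.48 ± 0.27 (5.48, adjusted p = 1.20e-06) and Tjp1, the gene of the scaffold protein ZO-1, at 10.21 ± 0.44 against 5.52 ± 0.33 (4.70, adjusted p = 6.84e-06). Cldn1 and Jam3 were dim on every endothelial array and reached the test through the stromal arrays alone. The endothelial mean of Tjp1 was dim too, so the sizes of these differences are limited by the floor of the arrays. Of the listed claudin and occludin genes outside the naming rule, Cldn12 was higher (10.74 ± 0.25 against 8.89 ± 0.66, adjusted p = 0.00190), Cldn3 was lower (5.73 ± 0.20 against 6.74 ± 0.12, a difference of -1.01, adjusted p = 0.00241), and Cldn11 and Ocln were dim in both populations. The Cldn3 call was lost after cyclic loess.

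Icam2 was the most variable member on the endothelial arrays. It encodes a ligand of the leukocyte integrin LFA-1 and is carried by endothelium, platelets and lymphocytes. It lay at 5.78, 5.62, 5.70 and 5.35 on stromal 1 to 4 and at 7.01, 8.81 and 5.41 on endothelial 1 to 3. Endothelial 2 was far above and endothelial 3 inside the stromal range, and the difference of -1.47 did not pass (95% interval -3.03 to 0.10, adjusted p = 0.0930). Single arrays decided the value: it was -0.60 without endothelial 2 (adjusted p = 0.247) and -2.30 without endothelial 3, where it passed (adjusted p = 0.00581). Among the endothelial arrays, the means of the B-lineage, progenitor, neutrophil, monocyte and pan-leukocyte markers were also highest on endothelial 2. They were lowest on endothelial 3. The means of the platelet and erythroid markers were not highest on endothelial 2. Single genes often departed from these means. The progenitor genes Gata2 and Hlf were lowest on endothelial 2. The pan-leukocyte genes Coro1a, Laptm5, Fermt3, Itgb2, Was and Vav1 were not highest there. The B-lineage genes Cd79b, Pax5, Blnk and Cd37 were higher on endothelial 3 than on endothelial 1. The mean of 8 B-lineage markers was 5.89 to 6.73 on the stromal arrays and 7.52, 9.20 and 7.49 on endothelial 1 to 3. Of these 8 markers 6 were lower on the stromal arrays (background 16.0% of 13995 genes). After cyclic loess 3 were lower, and 1 was with hybridisation-control level as a block. The mean of 7 stem and progenitor markers was 7.08 to 7.78 on the stromal arrays and 7.68, 8.61 and 7.52 on endothelial 1 to 3. The mean of 9 neutrophil markers was 7.84 to 10.09 on the stromal arrays and 11.86, 12.55 and 9.54 on endothelial 1 to 3. The part of these cells in the Icam2 values was not tested. The genes of the LFA-1 chains, Itgal and Itgb2, were lower on the stromal arrays by 6.07 and 6.26 on the log2 scale (adjusted p = 2.65e-06 and 2.72e-04). On the endothelial arrays they spanned 12.34 to 12.86 and 11.96 to 12.94 and were not highest on endothelial 2.

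**Figure D3:**
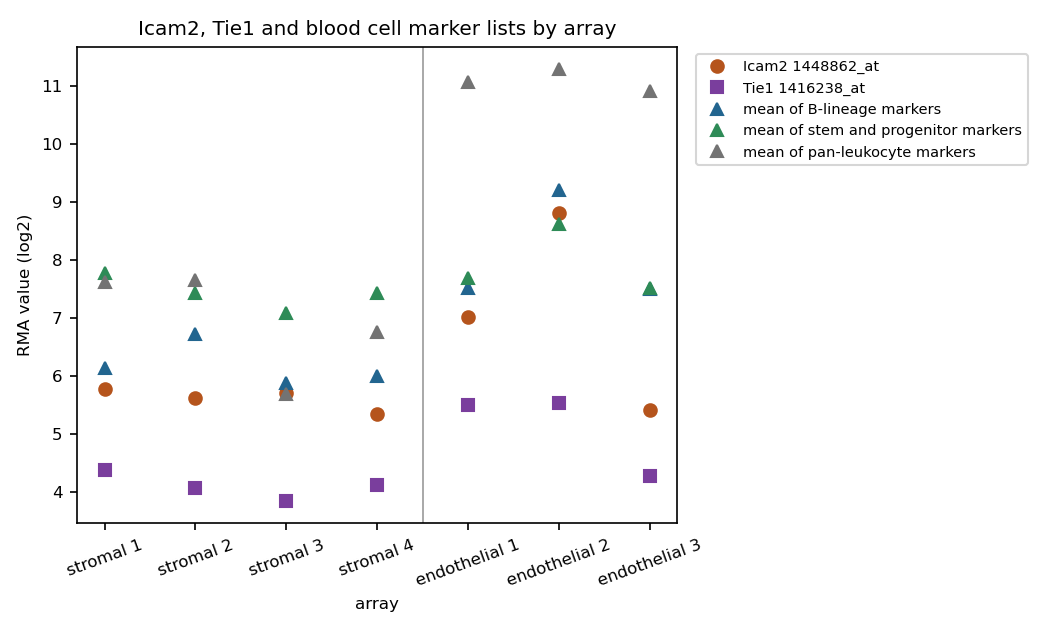
Log2 values (y axis) on each array (x axis) for Icam2, Tie1 and the means of 3 blood cell marker lists; the vertical line separates the 4 stromal arrays from the 3 endothelial arrays, and the B-lineage mean on endothelial 3 lies under the progenitor mean. Icam2 and the B-lineage and progenitor means are highest on endothelial 2, and Icam2 and Tie1 are lowest among the endothelial arrays on endothelial 3.

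The position of each probe set within its array gave the same picture for the strong differences and differed between the probe sets of Eng. These positions are ranks of the same deposited values, so the likeness adds no separate support. Percentiles depend on a probe set's own affinity as well as on RNA, so they are compared here within a probe set. Esam lay at percentiles 60.02 to 67.5 on the stromal arrays and at 97.5 to 98.7 on the endothelial arrays. Plvap lay at 26.6 to 44.6 against 83.2 to 90.4. Clec14a (1419467_at) lay at 88.0 to 91.4 against 29.4 to 46.9. For Eng 1417271_a_at the populations overlapped on this scale, at 76.1 to 80.7 against 75.0 to 77.2, although its log2 values did not. Eng 1432176_a_at did not overlap on either scale, at 75.5 to 79.4 against 66.0 to 73.3. Icam2 spanned 36.6 to 45.5 against 31.1 to 86.1.

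**Figure D4:**
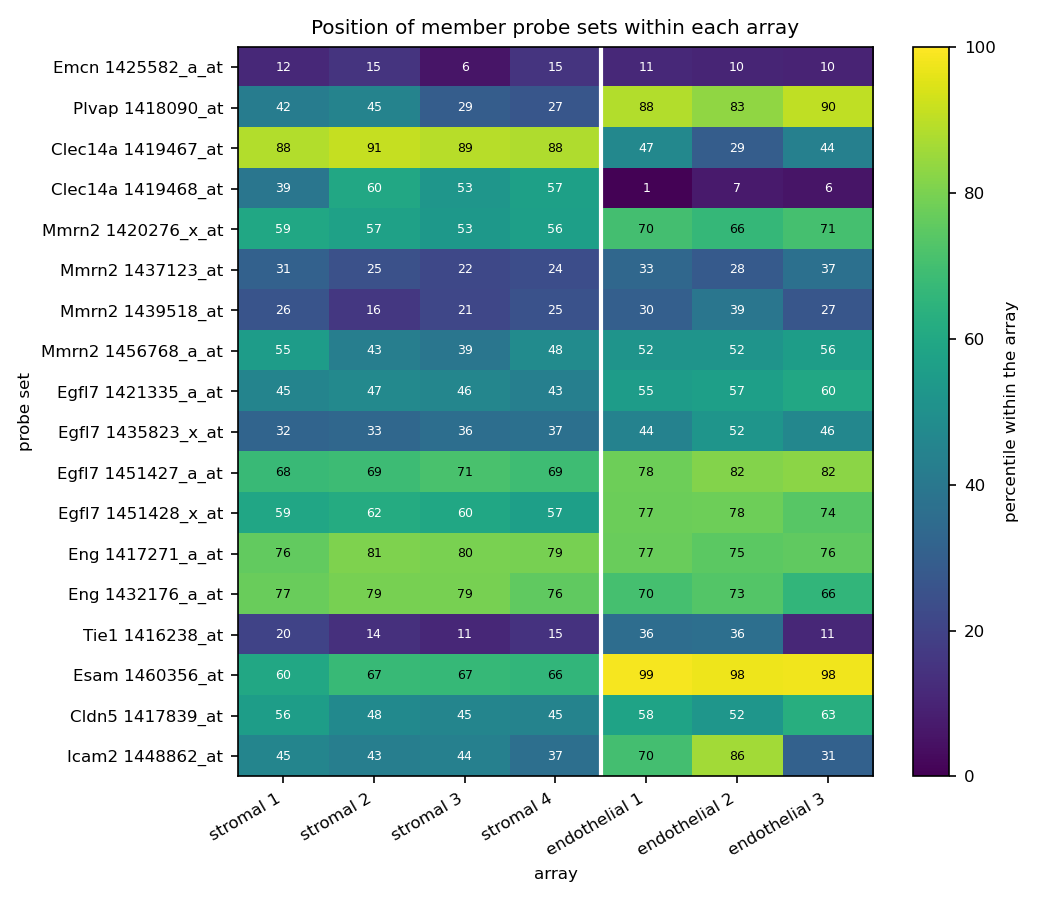
Percentile of each member probe set (rows) among the non-control probe sets of each array (columns), dark for low and light for high, with the 4 stromal arrays left of the white line and the 3 endothelial arrays right of it. Esam and Plvap are light on the endothelial side, Clec14a 1419467_at on the stromal side, and Emcn is dark throughout.

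A list of 37 other pan-endothelial genes held genes called in both directions, as the members did. Cd93, Ptprb and Tek are also on the list of partners. Of the 28 bright enough to test, 5 were higher on the stromal arrays (background 30.5% of 13995 genes), 11 were lower (background 16.0%) and 12 passed neither way. The median difference of those tested was -0.84, against 0.19 over all genes tested. Called higher with the largest differences were Adgrf5, S1pr1, Cyyr1 and Palmd. Adgrf5, an adhesion G protein-coupled receptor gene, lay at 12.30 ± 0.33 against 5.36 ± 0.22 (6.94, adjusted p = 4.93e-07). S1pr1, the gene of a sphingosine-1-phosphate receptor, lay at 11.29 ± 0.24 against 5.73 ± 0.81 (5.56, adjusted p = 1.00e-05). Cyyr1 and Palmd differed by 3.60 and 3.31. Adgrf5 and Palmd were dim on every endothelial array and reached the test through the stromal arrays alone. The endothelial mean of Cyyr1 was dim too, so the sizes of these differences are limited by the floor of the arrays. Called lower with the largest differences were Vwf, Tal1, Lyl1 and Myct1. Vwf, the gene of von Willebrand factor, which megakaryocytes also make, differed by -7.37. Tal1 and Lyl1, genes of transcription factors shared by blood and endothelial cells, differed by -6.28 and -5.79, and Myct1 by -3.53 (6.65 ± 0.23 against 10.19 ± 0.47, adjusted p = 1.93e-05). Pecam1, whose product was used in the sort, differed by -3.48. Pecam1 was dim on every stromal array and reached the test through the endothelial arrays alone, so its size is limited by the floor too. Blocking on hybridisation-control level left 5 higher and 8 lower, and the calls of Cd34, Cd93 and Adgrl4 were lost.

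Of 42 listed paralogues and partners of the members on the array, 38 were tested, 15 were higher on the stromal arrays (background 30.5%), 7 were lower (background 16.0%) and 16 passed neither way. Their median difference was -0.18, and it was 0.01 after cyclic loess.

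**Figure D5:**
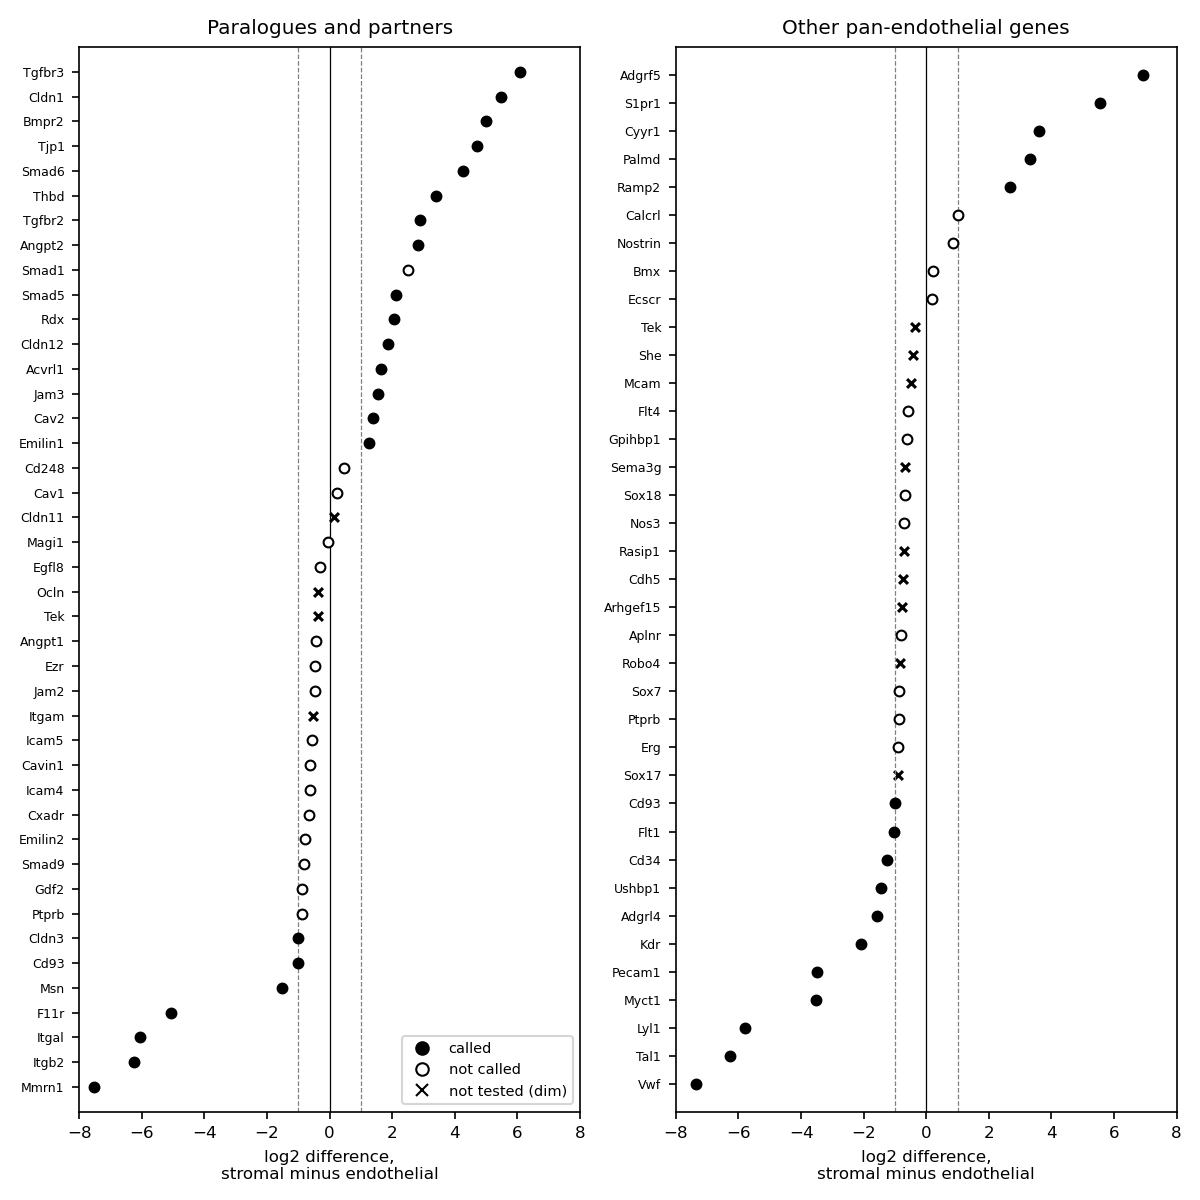
Log2 difference, stromal minus endothelial, of the listed paralogues and partners (left) and of the other pan-endothelial genes (right), 1 probe set per gene; filled points were called, open points were not, crosses were too dim to test, and dashed lines mark -1 and 1. Mmrn1, Itgb2, Itgal and F11r stand apart at the low end on the left, and Vwf, Tal1 and Lyl1 on the right, while Tgfbr3 and Adgrf5 are at the high ends.

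The genes whose profile over the 7 arrays came closest to each member were found by the root mean square difference of log2 values after each probe set was centred on its own mean. All profiles share the same 7 arrays, and this likeness is a description. For Esam the nearest were F11r (0.18), Slc39a4 (0.21) and Stx11 (0.22). For Plvap they were Fli1, Wipf1 and Nadk2 (0.22 each). For Clec14a they were Slc41a2 (0.14), C2 (0.15) and Fam20a (0.18). For Icam2 they were Pkp4 (0.20), Hk3 (0.23) and Igll1 (0.28). The members with small differences lay at 0.03 to 0.12 from their nearest genes: Ints5, Tmem175 and Iqcc for Eng, Rrp9, Car12 and Snrnp70 for Egfl7, Actg1, Prmt9 and 4930507D05Rik for Mmrn2, and Kif18b, Sik3 and Ptn for Cldn5.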

How the data were processed

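Gene expression was measured on 7 arrays. The authors deposited log2 expression values made with Affymetrix Expression Console 1.1 and RMA, per the submitters' processing notes, a method that subtracts background, applies quantile normalization and then combines a probe set's probes into 1 value. Which arrays were normalized together is not given in the sources used here, and no detection calls were used. Symbols came from the platform annotation of the table: 34945 probe sets had 1 symbol, 932 several and 9160 none.

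Differences were fitted with limma 3.58.1 under R 4.3.3 on all 7 arrays, using lmFit and eBayes without covariates. Probe sets needed 3 or more arrays brighter than that array's 40th percentile: 29438 met this and 15599 did not. P-values were adjusted by Benjamini-Hochberg over all of them. Gene lists used each gene's probe set with the highest mean. The fit was tested on simulated data. The members, lists and rules were chosen with earlier results of these data known. Named genes were all member probe sets, fixed partners and, per list, up to 4 called genes per direction, by size of difference, whose populations did not overlap, and the 3 nearest profiles of each tested member. Alternatives were no filter or a filter at the 60th percentile, a second quantile normalization, cyclic loess, eBayes with trend and robust options, adjusted p alone, 1 value per gene, leaving out cross-hybridising probe sets, replicate number or hybridisation-control level as a block, and dropping 1 array at a time. The hybridisation-control block compares endothelial 1 alone with the stromal arrays.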

Additional observations from a re-analysis of the deposited data

Results flagged for a closer look

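Among 45 profiles of members and named genes, 4 had 1 stromal array far from the other 3 by Dixon's test. Chance alone flags about 1 in 20 groups. Cldn5 was high on stromal 1, at 6.43 against 5.76 to 5.87 on the other stromal arrays. Cyyr1 was high on stromal 2, at 9.46 against at most 9.05. Itgb2 was low on stromal 3, at 3.95 against 6.60 to 7.12. Vwf was high on stromal 4, at 7.66 against 5.96 to 6.15. The mean of the 14 platelet markers was also high on stromal 4, at 8.23 against 6.24 to 6.70 on the other stromal arrays. The pan-leukocyte mean, which includes Itgb2, was low on stromal 3, at 5.69 against 6.76 to 7.65. Whether these values go together was not tested.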

How the results depend on the processing

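As reported, 3 member probe sets were higher and 2 lower on the stromal arrays. With 1 probe set per gene, 1 was higher, because the brighter probe set of Eng falls short of the required size. Those lower numbered 4 after a second quantile normalization and 4 after cyclic loess, where 2 probe sets of Egfl7 passed, and 6 with the adjusted p alone. Leaving out each array in turn gave 2 to 4 higher and 2 to 4 lower. The 4 higher came without stromal 1, where the other probe set of Eng passed. The 4 lower came without endothelial 3, where Icam2 and 1 probe set of Egfl7 passed. None of the 14 tested member probe sets reversed direction in the settings run. With replicate number as a block the counts stayed 3 and 2. Deviations of same-numbered arrays correlated at -0.119, 0.0017 and 0.117, and those of differently numbered arrays at -0.107 to 0.133. With so few arrays this cannot tell whether same-numbered arrays share a mouse or sort. Over all tested probe sets 7649 were higher and 4292 lower (64.1% higher), against 6114 and 5672 after a second quantile normalization (51.9% higher), 9057 and 8579 with adjusted p alone, and 3351 and 1764 when probe sets were averaged per gene. The cause of these shifts was not tested. Small differences of dim probe sets are limited by the floor of the arrays.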

Other observations

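Genes listed as sinusoidal endothelial markers were in part lower on the stromal arrays. Of 9 listed sinusoidal markers 8 were tested, 0 were higher and 4 were lower on the stromal arrays, where 30.5% and 16.0% of all genes tested were: Clec4g, an endothelial C-type lectin gene (5.07 ± 0.26 against 11.41 ± 0.36, a difference of -6.34, limma adjusted p = 6.85e-07), Lyve1 (4.94 ± 0.04 against 7.37 ± 0.21), Oit3 (5.43 ± 0.12 against 7.69 ± 0.33) and Bmp2 (8.77 ± 0.18 against 10.06 ± 0.30). These 4 genes were named after their values were seen. Clec4g and Lyve1 were dim on every stromal array and reached the test through the endothelial arrays alone. The stromal mean of Oit3 was dim too, so the sizes of these differences are limited by the floor of the arrays. Of the 4 called, only Bmp2 had a mean above the dim range in both populations. Stab2, a scavenger receptor gene, did not reach the required size (6.47 ± 0.24 against 7.07 ± 0.11).

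Of the other marker lists, the reticular stromal list had 15 of 15 higher and the pan-leukocyte list 10 of 10 lower on the stromal arrays. Against the same backgrounds, of 9 neutrophil markers 5 were lower, of 7 monocyte and macrophage markers 1 was higher and 4 lower, of 5 erythroid markers 2 were lower, and of 7 stem and progenitor markers 1 was higher and 2 lower. With hybridisation-control level as a block, 8 of the pan-leukocyte, 0 of the neutrophil and 1 of the monocyte markers were lower. The pan-leukocyte calls lost were those of Ptprc, the CD45 gene, and Cd53. The higher monocyte call, Cd14, was lost after a second quantile normalization, after cyclic loess and with either block.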
